A study of Mus musculus with 8 samples.

Results

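The genes described are 10 genes of cellular iron handling: Tfrc, Steap3 and Slc11a2 (uptake), Fth1, Ftl1 and Ncoa4 (storage), Slc40a1 (export), and Aco1, Ireb2 and Fbxl5 (sensing). They were chosen by name, and each matched 1 row of the 53700 genes in the count table. RNA-Seq had been performed on Lewis lung carcinoma (LLC) cells, a mouse lung carcinoma line, either WT or FIH-KO, kept for 16 hours in normoxia (21% O2) or in hypoxia (1% O2). FIH (factor inhibiting HIF, gene Hif1an) is an oxygen-dependent asparagine hydroxylase that restrains the hypoxia-inducible factors (HIFs). The 4 groups were WT cells in normoxia, WT cells in hypoxia, FIH-KO cells in normoxia and FIH-KO cells in hypoxia, with 2 libraries each. No other agent is named in the sample titles. The FIH-KO cells were made with a CRISPR/Cas9 guide against exon 2 of Hif1an and then diluted to single cells, so an effect of FIH loss and a property of the cells picked cannot be told apart. The labels number the 2 libraries of a group but do not say that they came from separate cultures, so p values measure the spread between these libraries, which may be technical.

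Iron enters most cells bound to transferrin, through the transferrin receptor, and is released in endosomes, reduced and moved into the cytosol. Iron that is not used is stored in ferritin, a shell of heavy and light chains, or leaves the cell through ferroportin. When iron is low, the iron regulatory proteins (Aco1, also called IRP1, and Ireb2, also called IRP2) bind hairpins in mRNAs, the iron-responsive elements. Binding in a 5′ UTR blocks translation, as in ferritin mRNAs, and binding in the 3′ UTR protects the Tfrc mRNA from decay. Fbxl5 is the ubiquitin ligase subunit that senses iron and oxygen and directs IRP2 to degradation, and Tfrc is a known HIF target. RNA-Seq measures the mRNA level and not the protein, and in bulk RNA a change in some cells and a smaller change in every cell cannot be told apart.

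The hairpins were searched for in the UTRs of GENCODE M39 transcripts on GRCm39, the mouse build that the study's methods name, as the motif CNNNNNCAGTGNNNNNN on the transcript's strand, with the 5 bases on each side of the loop able to pair. The motif was present in 0.112% of 20621 5′ UTRs and 0.591% of 20649 3′ UTRs. Of the 10 genes, 4 held it. They are shown because, among these 4, they separate the genes whose translation the hairpin controls from the gene whose mRNA stability it controls. Each site is 29 bases long, lies within 1 exon, and has its 6-base loop in capitals. The 3 sites in 5′ UTRs, on the plus strand at chr19:9960096-9960124 for Fth1 and on the minus strand at chr7:45109203-45109231 for Ftl1 and chr1:45964625-45964653 for Slc40a1, read
Fth1: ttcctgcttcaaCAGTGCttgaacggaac
Ftl1: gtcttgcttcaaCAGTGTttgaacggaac
Slc40a1: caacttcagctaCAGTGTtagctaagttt
The 4 sites in the 3′ UTR of Tfrc, all on the plus strand, at chr16:32450037-32450065, chr16:32450416-32450444, chr16:32450481-32450509 and chr16:32450528-32450556, read
Tfrc site 1: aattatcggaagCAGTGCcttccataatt
Tfrc site 2: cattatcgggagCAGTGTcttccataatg
Tfrc site 3: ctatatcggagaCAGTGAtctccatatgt
Tfrc site 4: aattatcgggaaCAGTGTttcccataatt
The Tfrc sites started 883, 1262, 1327 and 1374 bases after the coding sequence. For the other 6 genes these letters were not found in the UTRs searched. The search required all 5 pairs, so it misses hairpins with a bulge or a mismatch at those positions. It therefore does not show that the other 6 genes, Slc11a2 among them, lack an iron-responsive element.

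**Figure D1:**
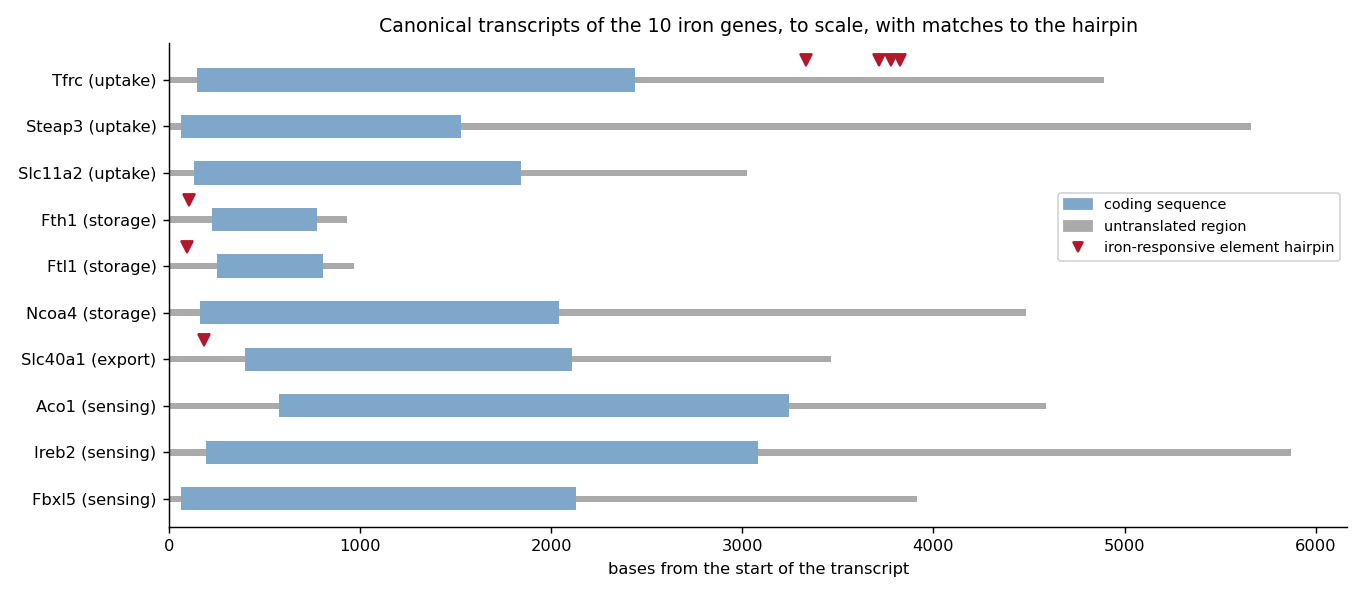
Canonical transcripts of the 10 iron genes drawn to scale in bases from the transcript start, with the coding sequence as a thick bar, the UTRs as thin bars and each hairpin match as a triangle. Fth1, Ftl1 and Slc40a1 carry 1 match each before the coding sequence, and Tfrc carries 4 after it.

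Library totals ran from 14519731 to 18177016 counts. Levels are given as CPM (reads of the gene relative to all counted reads of the library, on the usual CPM scale) after TMM scaling, and every log2 fold change with its standard error (SE) and adjusted p comes from edgeR's quasi-likelihood test over 13933 tested genes, with 0.05 as the threshold. A positive log2 fold change is higher in FIH-KO cells, or higher in hypoxia. The targeted gene was checked first. Hif1an held 1316 and 1389 counts in the WT normoxia libraries, 1609 and 1231 in WT hypoxia, 584 and 673 in FIH-KO normoxia and 729 and 784 in FIH-KO hypoxia. Each FIH-KO library was therefore below each WT library. Of the genes known to respond to oxygen, Vegfa, Pdk1, Egln3, Slc2a1, Ndrg1 and Bnip3 rose with hypoxia in both genotypes, by log2 fold changes between 1.40 (SE 0.18, Egln3) and 3.97 (SE 0.25, Ndrg1) in WT cells. Car9, another such gene, had 2 and 2 counts in WT normoxia and 49 and 27 in WT hypoxia. Under FIH-KO it had 5 and 4 counts in normoxia and 5 and 2 in hypoxia. It entered the test only through its WT hypoxia libraries, where it is high, and is given by its counts.

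The cells expressed Krt8 and Krt18, keratins of simple epithelia, and Vim, a mesenchymal filament gene, with Vim between 46720 and 93218 counts per library. The markers were not level between the genotypes. Krt8 was higher in FIH-KO cells by a log2 fold change of 1.02 (SE 0.16, adjusted p = 0.000664, edgeR) in normoxia and 1.00 (SE 0.16, adjusted p = 0.000827, edgeR) in hypoxia. Vim was higher by 0.52 (SE 0.14, adjusted p = 0.0173, edgeR) and 0.58 (SE 0.14, adjusted p = 0.0102, edgeR), and Krt18 did not pass (-0.05, SE 0.17, and 0.12, SE 0.18). With hypoxia Krt18 fell in WT cells (-0.59, SE 0.18, adjusted p = 0.0231, edgeR) and did not pass in FIH-KO cells (-0.42, SE 0.17, adjusted p = 0.123, edgeR). Krt8 and Vim did not pass with hypoxia in either genotype. The part of these markers in the iron gene values was not tested. The epithelial adhesion genes Epcam and Cdh1 and the lung lineage genes Nkx2-1 and Sftpc were at 0 or 1 count in every library. Hbb-bs, Hbb-bt, Hba-a1 and Alas2, genes of the red cell lineage in which iron handling is most active, were at 0 in all 8 libraries.

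Per base of transcript, the ferritin chains were far more abundant than the other iron genes. In WT normoxia the level in CPM per kilobase of the canonical transcript was 1625 ± 61.7 for Fth1 and 1231 ± 82.5 for Ftl1 (SD, n = 2 each). Tfrc followed at 73.9 ± 10.3 on the same scale. Aco1 (18.5 ± 1.24) and Ireb2 (18.1 ± 0.181) differed by less than their spread, and so did Fbxl5 (12.4 ± 0.900) and Slc11a2 (12.3 ± 0.837). Ncoa4 stood at 11.04 ± 0.0646 and Steap3 at 10.4 ± 0.712, also within their spread, and Slc40a1 at 0.0271 ± 0.0141. The order depends on the length used: per kilobase of all annotated exons Fth1 was at 429 and Ftl1 at 889.6, and Steap3, at 7.94, was above Ncoa4 (4.93), Slc11a2 (3.36) and Fbxl5 (2.69).

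**Figure D2:**
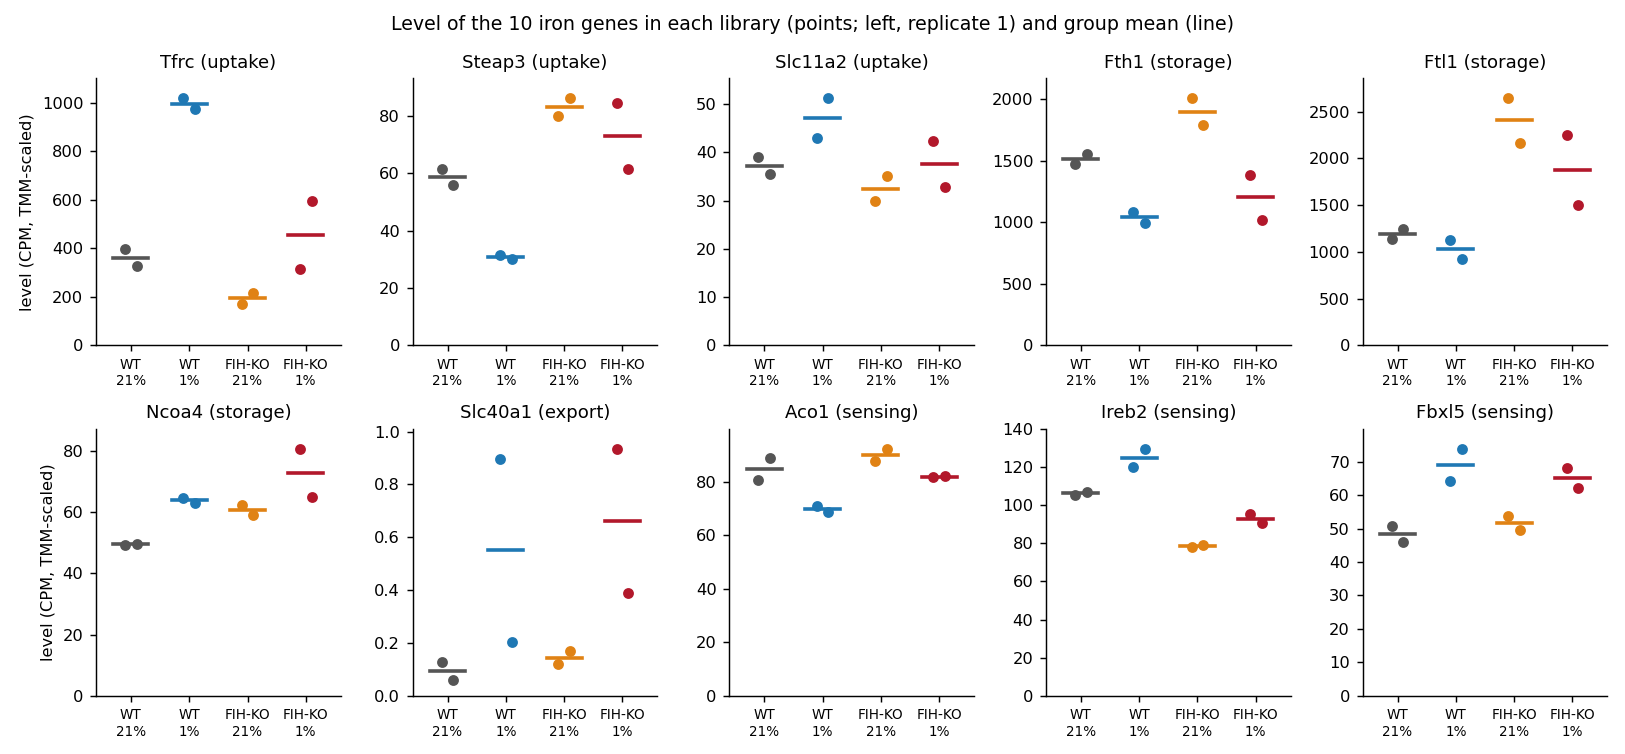
Level of each of the 10 genes (CPM after TMM scaling, linear axis from 0) in the 8 libraries, with points for libraries, replicate 1 on the left, and lines for group means. Tfrc was highest in the WT hypoxia libraries, Ftl1 was higher in every FIH-KO library than in any WT library, and Steap3 was lowest in the WT hypoxia libraries.

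The first question was how loss of FIH changed these genes. In both oxygen conditions FIH-KO cells had less Tfrc and Ireb2 mRNA and more Ftl1 and Steap3 mRNA. In normoxia 4 of the 10 genes passed the test, 2 higher and 2 lower, beside 28.2% of all tested genes. In hypoxia the count was again 4, 2 higher and 2 lower, beside 28.0% of all. With 10 genes these counts are close to the background, and the results lie in the single genes. Where libraries of 2 groups are said not to overlap, that is a description. With 2 libraries per group it can arise without a change, and its share over all tested genes was not counted. The same 4 genes were called in both conditions, with 9.97% of all genes higher in both and 8.68% lower in both.

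Tfrc (ENSMUSG00000022797.17, plus strand, chr16:32427556-32451612), the transferrin receptor, was at 398 and 326 CPM in the WT normoxia libraries and at 169 and 217 CPM in FIH-KO normoxia. The groups did not overlap, and the log2 fold change was -0.90 (SE 0.235, adjusted p = 0.0132, edgeR). In hypoxia Tfrc stood at 1019 and 974 CPM in WT cells and at 314 and 596 CPM in FIH-KO cells. Again no FIH-KO library reached a WT library, with a log2 fold change of -1.13 (SE 0.23, adjusted p = 0.00393, edgeR). Between the hypoxia libraries of FIH-KO cells the gap was 1.90-fold for Tfrc, the widest of the 4 groups. The hypoxia value was -0.70 without FIH-KO hypoxia replicate 1 (adjusted p = 0.00806, edgeR) and -1.66 without replicate 2 (adjusted p = 4.85e-05, edgeR). The normoxia call was lost without WT replicate 1 (-0.78, adjusted p = 0.101, edgeR) or FIH-KO replicate 1 (-0.76, adjusted p = 0.116, edgeR).

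Steap3 (ENSMUSG00000026389.17, minus strand, chr1:120118487-120200435), the endosomal ferrireductase that acts on iron taken up by the receptor, went the other way. It was at 61.6 and 55.9 CPM in WT normoxia and at 79.9 and 86.2 CPM in FIH-KO normoxia. The groups did not overlap, but the log2 fold change of 0.50 (SE 0.15, adjusted p = 0.0227, edgeR) lost its call when any 1 of the 4 libraries compared was left out (adjusted p between 0.0722 and 0.188). In hypoxia WT cells were at 31.7 and 30.3 CPM and FIH-KO cells at 84.7 and 61.6 CPM. There the lower FIH-KO library was well above both WT libraries, with a log2 fold change of 1.24 (SE 0.15, adjusted p = 0.000145, edgeR), and the call held in all 15 other settings.

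Slc11a2 (also called DMT1), which carries ferrous iron out of endosomes, did not pass in either condition. Its levels were 39.03 and 35.45 CPM in WT normoxia, 30.0 and 35.0 in FIH-KO normoxia, 42.9 and 51.2 in WT hypoxia and 42.3 and 32.7 in FIH-KO hypoxia. The FIH-KO libraries lay below the WT libraries in both conditions, by small margins, with log2 fold changes of -0.20 (SE 0.16) and -0.33 (SE 0.16).

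Among the storage genes, the light chain of ferritin moved more than the heavy chain. Ftl1 (ENSMUSG00000050708.17, minus strand, chr7:45107367-45109308) was at 1136 and 1249 CPM in WT normoxia and at 2645 and 2169 CPM in FIH-KO normoxia. The highest WT library was at 1249 CPM and the lowest FIH-KO library at 2169 CPM, and the log2 fold change was 1.01 (SE 0.18, adjusted p = 0.0019, edgeR). In hypoxia Ftl1 was at 1127 and 927 CPM in WT cells and at 2248 and 1504 CPM in FIH-KO cells. The log2 fold change was 0.87 (SE 0.18, adjusted p = 0.0045, edgeR), and it stood just outside the threshold without WT replicate 2 (0.74, adjusted p = 0.055, edgeR).

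Fth1 (ENSMUSG00000024661.8, plus strand, chr19:9957911-9962462), the heavy chain that oxidises iron for storage, was at 1469 and 1550 CPM in WT normoxia and at 2007 and 1791 CPM in FIH-KO normoxia. The groups did not overlap, yet the log2 fold change of 0.33 (SE 0.15) did not pass (adjusted p = 0.118, edgeR). In hypoxia WT cells were at 1083 and 995 CPM and FIH-KO cells at 1386 and 1021 CPM, and the ranges overlapped (log2 fold change 0.21, SE 0.15, adjusted p = 0.32, edgeR). In normoxia Fth1 passed when every gene with at least 1 count in any library was tested (0.35, adjusted p = 0.0147, edgeR) and when only the 4 libraries compared were fitted (0.33, adjusted p = 0.0325, edgeR). It also passed there without FIH-KO hypoxia replicate 1 (0.31) or 2 (0.33), and in hypoxia without FIH-KO hypoxia replicate 2 (0.42). With 1 library left out at a time, the hypoxia value of Fth1 ran from 0.017 to 0.42.

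The balance of the 2 chains can be read within each library, where scaling between libraries cancels. WT normoxia libraries held 0.774 and 0.806 Ftl1 reads per Fth1 read, and FIH-KO normoxia libraries held 1.32 and 1.21. In hypoxia WT libraries stood at 1.04 and 0.931 and FIH-KO libraries at 1.62 and 1.47. Each group stood apart from the other 3, and the order rose from WT normoxia to WT hypoxia, FIH-KO normoxia and FIH-KO hypoxia. Reads counted on 3 annotated pseudogenes of each chain came to at most 0.123% of those of Fth1 and 0.526% of those of Ftl1, and adding them changed no call for either gene. How the counting treated reads that fit both a gene and a pseudogene is not given in the sources used here.

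Ncoa4, the receptor that delivers ferritin to lysosomes, was at 49.3 and 49.7 CPM in WT normoxia and 62.3 and 59.1 CPM in FIH-KO normoxia. The libraries of the 2 groups were clearly apart, but the log2 fold change of 0.29 (SE 0.13) did not pass (adjusted p = 0.102, edgeR). It reached the threshold with only the 4 libraries in the fit (adjusted p = 0.0492, edgeR) and without FIH-KO hypoxia replicate 2 (adjusted p = 0.0483, edgeR). In hypoxia it was at 64.7 and 62.9 CPM in WT cells and 80.7 and 64.8 CPM in FIH-KO cells, where the lower FIH-KO library was next to the WT libraries (log2 fold change 0.19, SE 0.12, adjusted p = 0.289, edgeR).

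Of the sensing genes, Ireb2 (ENSMUSG00000032293.9, plus strand, chr9:54770970-54820011), the gene for IRP2, was lower in FIH-KO cells. It was at 106 and 107 CPM in WT normoxia and at 77.99 and 78.91 CPM in FIH-KO normoxia. Replicates of each group differed by 1.01-fold, and the log2 fold change was -0.44 (SE 0.10, adjusted p = 0.00772, edgeR). In hypoxia Ireb2 was at 120.1 and 129.8 CPM in WT cells and at 95.5 and 90.5 CPM in FIH-KO cells. That was a log2 fold change of -0.43 (SE 0.10, adjusted p = 0.00891, edgeR), of the same size as in normoxia. Leaving out WT replicate 1 or 2 in normoxia (adjusted p = 0.0515 and 0.0572, edgeR) or WT replicate 2 in hypoxia (0.0764) ended the call while the log2 fold change stayed between -0.48 and -0.37.

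Aco1, the gene for IRP1, which is cytosolic aconitase when it holds an iron-sulfur cluster, did not pass. It ranged from 80.8 to 92.3 CPM over the 4 normoxia libraries, and in hypoxia it was at 70.9 and 68.8 CPM in WT cells and 81.6 and 82.1 CPM in FIH-KO cells. The hypoxia libraries did not overlap (log2 fold change 0.23, SE 0.11, adjusted p = 0.132, edgeR). Fbxl5 was at 50.9 and 45.9 CPM in WT normoxia and 53.9 and 49.5 CPM in FIH-KO normoxia. In hypoxia Fbxl5 stood at 64.3 and 74.0 CPM in WT cells and 68.3 and 62.3 CPM in FIH-KO cells. The genotypes overlapped in both conditions, with log2 fold changes of 0.09 (SE 0.12) and -0.08 (SE 0.12).

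Slc40a1 (ferroportin, the only known cellular iron exporter) was almost absent. It had 2 and 1 counts in WT normoxia, 16 and 3 in WT hypoxia, 2 and 3 in FIH-KO normoxia, and 15 and 6 in FIH-KO hypoxia. The normoxia libraries lie at or under 3 counts, the level that a count of 0 allows, and the gene entered the test only through its hypoxia libraries. No difference between genotypes was detectable at this depth. Csf1r, a macrophage gene, varied over the same libraries, with 0 and 2 counts in WT normoxia, 53 and 22 in WT hypoxia, 1 and 0 in FIH-KO normoxia, and 31 and 10 in FIH-KO hypoxia. Of the 3 endothelial or fibroblast markers, Cdh5 had 2, 1, 35, 18, 0, 1, 5 and 3 counts in the same order, Pecam1 had 2, 3, 5, 8, 3, 0, 2 and 2, and Col1a1 had 10, 11, 3, 8, 19, 26, 9 and 18. Csf1r and Cdh5 entered the test only through hypoxia libraries, as Slc40a1 did, and are given by their counts. Col1a1 did not pass with hypoxia in either genotype, and Pecam1 was too low to be tested. Of the other 5 macrophage or leukocyte markers, Adgre1 and Cd5l were at 0, Spi1 was at 0 or 1 and Ptprc at 3 counts or fewer in every library, and Cd68, the most abundant, had between 41 and 115 counts. The part of other cells in the Slc40a1 counts was not tested.

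**Figure D3:**
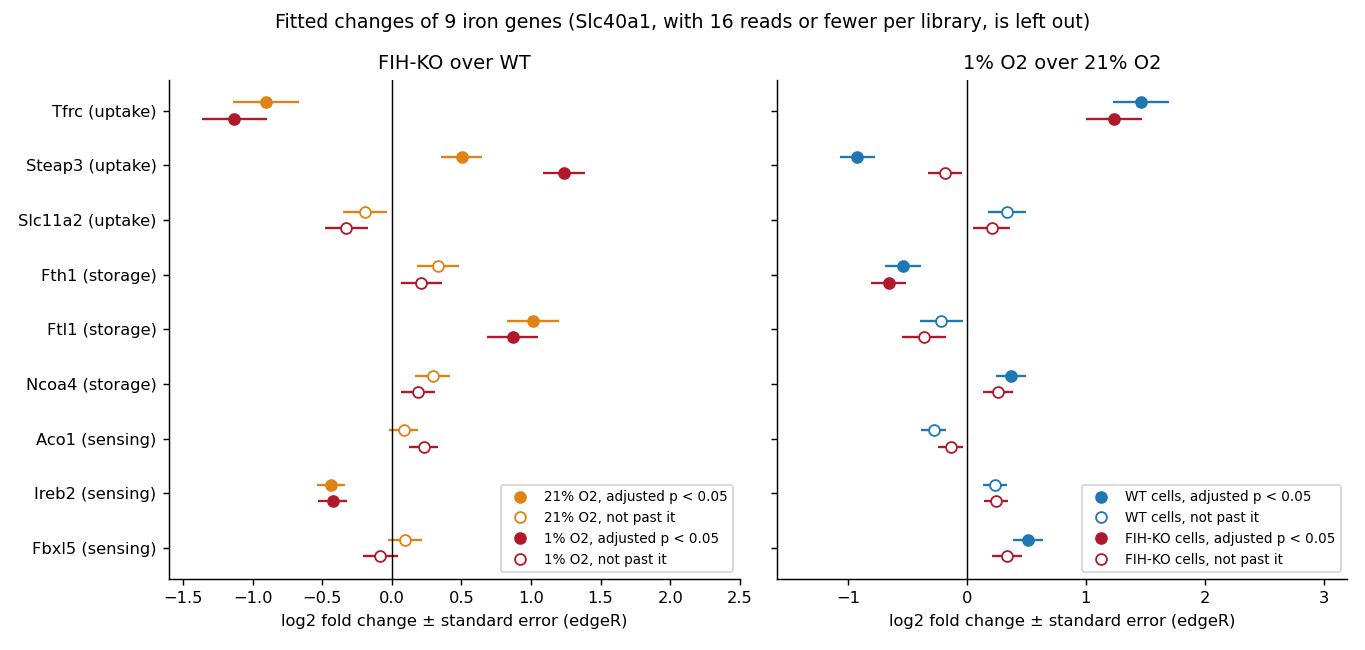
Log2 fold changes with their standard errors (edgeR) for 9 of the iron genes, FIH-KO over WT on the left and 1% over 21% O2 on the right, with filled points for an adjusted p under 0.05. Tfrc and Ireb2 lie left of 0 and Ftl1 and Steap3 right of 0 in FIH-KO cells, and under hypoxia Tfrc lies right of 0 and Fth1 left of 0 in both genotypes.

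The second question was how hypoxia changed the same genes within each genotype. Under hypoxia Tfrc rose and Fth1 fell in both genotypes, whereas Steap3 fell in WT cells and Fbxl5 and Ncoa4 rose there. In WT cells 5 of the 10 genes passed, 3 higher and 2 lower, beside 32.4% of all tested genes. In FIH-KO cells 2 passed, 1 higher and 1 lower, beside 16.8% of all, or 8.84% higher. In both genotypes 7.92% of all genes rose and 6.33% fell.

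For Tfrc the hypoxia libraries of WT cells, at 1019 and 974 CPM, were far above those in normoxia at 398 and 326. The log2 fold change was 1.46 (SE 0.24, adjusted p = 0.000785, edgeR). In FIH-KO cells Tfrc went from 169 and 217 CPM to 314 and 596 CPM, a log2 fold change of 1.23 (SE 0.24, adjusted p = 0.00447, edgeR). The value was 0.69 without FIH-KO hypoxia replicate 2 (adjusted p = 0.00912, edgeR) and 1.65 without hypoxia replicate 1 (adjusted p = 2.96e-05, edgeR). Without FIH-KO normoxia replicate 1 it was 1.09, with an adjusted p of 0.0503. The difference between the genotypes in the hypoxia effect was -0.23 (SE 0.33, adjusted p = 0.926, edgeR) and did not pass. The 2 FIH-KO hypoxia libraries lay on either side of the WT normoxia libraries, so the order of Tfrc levels was WT hypoxia highest and FIH-KO normoxia lowest, with the other 2 groups overlapping.

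Fth1 fell from 1469 and 1550 CPM to 1083 and 995 CPM in WT cells, a log2 fold change of -0.54 (SE 0.15, adjusted p = 0.0161, edgeR). In FIH-KO cells it fell from 2007 and 1791 CPM to 1386 and 1021 CPM (-0.66, SE 0.15, adjusted p = 0.0113, edgeR). In neither genotype did a hypoxia library reach a normoxia library. In WT cells the call was lost without normoxia replicate 2 (adjusted p = 0.0831) or hypoxia replicate 2 (0.106), and in FIH-KO cells without normoxia replicate 1 (0.0755) or with only those 4 libraries in the fit (0.065). Ftl1 did not pass in either genotype, with log2 fold changes of -0.22 (SE 0.18, adjusted p = 0.402, edgeR) in WT and -0.36 (SE 0.18, adjusted p = 0.206, edgeR) in FIH-KO cells. In FIH-KO cells its hypoxia value reached the threshold when every gene with a count was tested (-0.36, adjusted p = 0.0169, edgeR) and without hypoxia replicate 1 (-0.65). With 1 library left out at a time, that value ran from -0.65 to -0.10.

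The heavy and light chain counts together came to 2605 and 2799 CPM in WT normoxia and 2210 and 1921 CPM in WT hypoxia. In FIH-KO cells they came to 4652 and 3961 CPM in normoxia and 3633 and 2526 CPM in hypoxia. Total ferritin mRNA was thus highest where Tfrc was lowest, in the FIH-KO normoxia libraries, and lowest where Tfrc was highest, in the WT hypoxia libraries. Within a group, the library with more Tfrc had less Fth1 and less Ftl1 in 3 of the 4 groups, all but WT hypoxia. These are 8 libraries in 4 groups and the relation is a description.

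**Figure D4:**
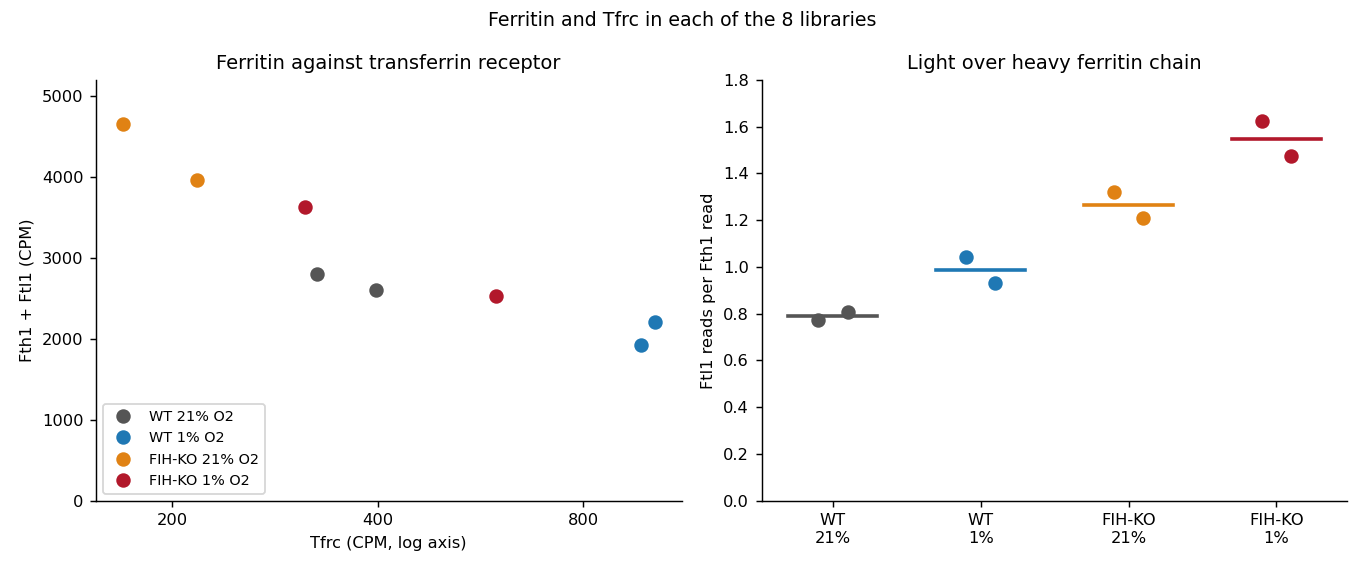
Left, Fth1 and Ftl1 together (CPM, linear axis from 0) against Tfrc (CPM, log axis) in the 8 libraries. Right, Ftl1 reads per Fth1 read, with points for libraries and lines for group means; the ratio runs from 0.774 in a WT normoxia library to 1.62 in an FIH-KO hypoxia library.

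Of the 10 genes, Steap3 had the largest fitted difference between genotypes in the response to hypoxia, which did not pass the test. In WT cells it fell from 61.6 and 55.9 CPM to 31.7 and 30.3 CPM, a log2 fold change of -0.92 (SE 0.15, adjusted p = 0.000817, edgeR). In FIH-KO cells it was at 79.9 and 86.2 CPM in normoxia and at 84.7 and 61.6 CPM in hypoxia, and the ranges overlapped (log2 fold change -0.18, SE 0.14, adjusted p = 0.429, edgeR). The difference between the 2 effects was 0.74 (SE 0.21, adjusted p = 0.465, edgeR), short of the threshold over all tested genes. It passed when every gene with at least 1 count in any library was tested (0.76, adjusted p = 0.0481). By edgeR the difference in hypoxia effect passed for 0 of the 10 genes and for 0% of all tested genes. At an unadjusted p under 0.05, 1 of the 10 genes (Steap3) and 925 of all tested genes were counted, and DESeq2 called 0 of the 10 and 40 of all.

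Fbxl5 rose with hypoxia in WT cells, from 50.9 and 45.9 CPM to 64.3 and 74.0 CPM (log2 fold change 0.51, SE 0.12, adjusted p = 0.00805, edgeR). In FIH-KO cells it went from 53.9 and 49.5 CPM to 68.3 and 62.3 CPM, also without overlap, but did not pass (0.34, SE 0.12, adjusted p = 0.0838, edgeR). The WT call was lost without normoxia replicate 2 (0.40, adjusted p = 0.133) or hypoxia replicate 2 (0.40, adjusted p = 0.0796). Ncoa4 rose in WT cells by 0.37 (SE 0.13, adjusted p = 0.0419, edgeR), a call that was lost in 9 of 15 other settings, DESeq2 among them. In FIH-KO cells its value was 0.26 (SE 0.12, adjusted p = 0.176, edgeR). With 1 library left out at a time, that value ran from 0.12 to 0.41, and it passed at 0.41, without hypoxia replicate 2.

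Ireb2, Aco1 and Slc11a2 did not pass in either genotype. Ireb2 was higher in hypoxia by 0.23 (SE 0.10, adjusted p = 0.0997, edgeR) in WT and 0.25 (SE 0.10, adjusted p = 0.126, edgeR) in FIH-KO cells, without overlap of libraries in either. Aco1 stood at -0.28 (SE 0.11, adjusted p = 0.0628, edgeR) in WT cells, which reached the threshold in 6 of 15 other settings, and at -0.14 (SE 0.11, adjusted p = 0.422, edgeR) in FIH-KO cells. Slc11a2 stood at 0.34 (SE 0.16, adjusted p = 0.121, edgeR) and 0.21 (SE 0.16, adjusted p = 0.414, edgeR). With only the 4 WT libraries in the fit, Ireb2 (adjusted p = 0.047, edgeR) and Slc11a2 (adjusted p = 0.0399, edgeR) passed in WT cells.

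The genes were also set beside their neighbours on the chromosome. Fth1 lies on chromosome 19, as does Hif1an. The median log2 fold change of FIH-KO over WT was -0.38 over 475 tested genes of that chromosome in normoxia and -0.45 in hypoxia. Among the 10 tested genes nearest to Fth1, within 223 kb, 6 were lower and 1 higher in each condition, with medians of -0.56 and -0.52, whereas Fth1 itself was at 0.33 and 0.21. Ireb2 lies on chromosome 9, where the median was -0.17 and -0.16 over 771 genes. Of its 10 nearest tested genes, within 595 kb, 7 were lower in normoxia and 6 in hypoxia, with medians of -0.51 and -0.73 beside -0.44 and -0.43 for Ireb2. Over all tested genes 13.0% were lower in normoxia and 13.9% in hypoxia. For Ftl1 on chromosome 7 the 10 nearest genes had medians of 0.46 and 0.31, beside 1.01 and 0.87 for Ftl1. Of these neighbours 5 were higher in normoxia and 3 in hypoxia, beside 15.2% and 14.1% of all tested genes, and 1 was lower in each. Around Tfrc on chromosome 16 the medians were 0.18 and 0.10, opposite in sign to Tfrc. Around Steap3 on chromosome 1 they were -0.04 and -0.31, also opposite to Steap3. Around the other 5 genes the medians lay between -0.33 and 0.29. The part of copy number in these values was not tested.

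The promoters were read because Tfrc rose with hypoxia in both genotypes. The letters ACGTG and GCGTG, the core that HIFs bind, were searched on both strands from 250 bases before to 50 after the start of the canonical transcript. Of 21700 promoters, 47.8% held at least 1 core. Of the 10 genes 7 did: Tfrc had 3, Slc11a2, Ncoa4 and Fbxl5 had 2 each, and Fth1, Ftl1 and Aco1 had 1 each. The pair in Fbxl5 is a single CACGTG read on both strands. The Tfrc cores, at positions -136, -83 and -21 from the start, lie in chr16:32427585-32427613, chr16:32427638-32427666 and chr16:32427700-32427728. The first and second are GCGTG on the minus strand and the third is ACGTG on the plus strand. All windows are printed as plus-strand sequence, with the core or its reverse complement in capitals, and read
Tfrc core 1: cgcagccaatcgCACGCgctctcccgaca
Tfrc core 2: ggctactccgcgCACGCactggctgcgcg
Tfrc core 3: ctcggtaggtgtACGTGcggaaggaagtg
A match of these letters is not a binding site. Of the 5 genes called with hypoxia in WT cells, Tfrc, Fbxl5 and Ncoa4, which rose, and Fth1, which fell, held a core, and Steap3, which fell, held none.

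The genes with the pattern most like Tfrc over the 8 libraries, by Pearson correlation of log2 CPM among the 7483 genes whose mean reached 20 CPM, were Ash1l (r = 0.986), Chuk (r = 0.985) and Safb2 (r = 0.981). For Fth1 they were Bahcc1 (r = 0.994), Capg (r = 0.978) and Sod1 (r = 0.975). The 8 points fall in 4 groups and share library depth and scaling, so these values are descriptions.

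The rest of the pathway was described with 80 further genes in 7 lists, of which 65 were tested. The 13 genes at 3 counts or fewer in every library were Tfr2, Trf, Ltf and Steap4 (uptake), Heph, Hephl1, Hamp, Hjv and Tmprss6 (export and hepcidin), Ftmt (mitochondrial ferritin), Alas2 and Flvcr2 (heme) and Epas1. Thus the hormone hepcidin, the transferrin gene itself and HIF-2α (Epas1) were near the limit of detection. With FIH-KO, 21 of the 65 passed in normoxia, 11 higher and 10 lower, beside 28.2% of all genes, and 24 passed in hypoxia, 14 higher and 10 lower, beside 28.0%. In both conditions 10 were higher and 5 lower, beside 9.97% and 8.68% of all tested genes. These lower counts include Slc39a8, and the 14 include Lcn2, each of which entered the test only through the group where it is high. The median log2 fold change over the 65 was 0.07 in normoxia and -0.09 in hypoxia, beside -0.003 and -0.03 over all tested genes.

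Of all tested genes, 15.2% were higher and 13.0% lower in normoxia, and 14.1% and 13.9% in hypoxia. Among uptake and reduction genes, 3 of 8 tested were higher and 1 lower in each condition. The lower gene was Slc39a8, which entered the test only through its WT hypoxia libraries, where it is high. Scara5, a ferritin receptor, was at 18.6 and 21.3 CPM in WT normoxia and 85.4 and 34.9 CPM in FIH-KO normoxia (log2 fold change 1.59, SE 0.33), and at 13.7 and 9.14 CPM against 56.8 and 43.1 CPM in hypoxia (2.12, SE 0.34). The FIH-KO libraries were above the WT libraries throughout, with a wide gap between the FIH-KO normoxia libraries. Steap2, a metalloreductase, was higher by 0.47 (SE 0.13) and 0.44 (SE 0.13).

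In the export and hepcidin list, 2 of 4 tested genes were higher and 1 lower in normoxia (15.2% and 13.0% of all genes), and 3 were higher in hypoxia (14.1% of all). Cp, ceruloplasmin, the ferroxidase that assists iron export, was at 7.51 and 10.3 CPM in WT normoxia and 68.1 and 50.1 CPM in FIH-KO normoxia. In hypoxia it was at 29.0 and 22.4 CPM in WT cells and 111 and 94.0 CPM in FIH-KO cells. FIH-KO libraries were far above WT libraries in both conditions, with log2 fold changes of 2.72 (SE 0.21, adjusted p = 5.62e-06, edgeR) and 1.99 (SE 0.19, adjusted p = 2.81e-05, edgeR). Furin, a protease that processes regulators of hepcidin, was higher by 0.41 (SE 0.10) and 0.40 (SE 0.10). In the list of ferritin partners only Herc2, a ubiquitin ligase linked to Ncoa4 turnover, passed among 5 tested, at 0.62 (SE 0.12) and 0.60 (SE 0.12).

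In the heme list 4 of 15 tested genes were higher and 1 lower in each condition, beside 15.2% and 13.0% of all genes in normoxia and 14.1% and 13.9% in hypoxia. Blvrb, a biliverdin reductase, was at 15.2 and 15.6 CPM in WT normoxia and 74.9 and 54.9 CPM in FIH-KO normoxia, a log2 fold change of 2.08 (SE 0.32, adjusted p = 0.000607, edgeR). In hypoxia it was at 10.9 and 10.4 CPM in WT cells and 53.5 and 21.6 CPM in FIH-KO cells (1.82, SE 0.33). The FIH-KO hypoxia libraries thus differed widely from each other. Slc48a1, which moves heme out of endosomes, was higher by 1.02 (SE 0.21) and 1.13 (SE 0.21). Fech, ferrochelatase, which inserts iron into heme, was higher by 0.72 (SE 0.12) and 0.97 (SE 0.13). Of 20 mitochondrial iron-sulfur genes 3 were lower and 0 higher in normoxia, near the 13.0% of all genes lower, and 5 were lower and 1 higher in hypoxia. Cisd3 (-0.86, SE 0.17, and -0.70, SE 0.17) and Cisd2 (-0.69, SE 0.14, and -0.42, SE 0.15), both iron-sulfur proteins, fell in both. Of 9 cytosolic assembly genes, 3 were lower in each condition and 1 and 2 were higher. That was 44.4% and 55.6% called, beside 28.2% and 28.0% of all genes. The genes went both ways, and their median log2 fold changes were 0.083 and -0.008. Ciapin1 (-0.68, SE 0.14, and -0.53, SE 0.14) and Mms19 (-0.57, SE 0.13, and -0.55, SE 0.13) fell, and Ciao1 (0.38, SE 0.13, and 0.57, SE 0.13) rose. Of 4 tested mRNAs known to carry a hairpin outside the 10 genes, 1 was lower in normoxia and 0 passed in hypoxia by edgeR (unadjusted p under 0.05 for 1). The genes behind these counts that the naming rule leaves out included, in normoxia, Mcoln1 and Hmox2 (higher) and Slc39a8, Hfe, Ciao2a and Cdc14a (lower). In hypoxia they included Lcn2, Neo1, Hmox2, Nfs1 and Nubp1 (higher) and Slc39a8, Cpox, Nfu1, Slc25a28 and Ciao2b (lower), in both cases named after their values were seen. Lcn2 had 57 and 18 counts in FIH-KO hypoxia and 0 or 1 in the other 6 libraries, so it entered the test through the one group where it is high, and without it 2 uptake genes were higher there. Slc39a8 was also low, with 7 and 8 counts in WT normoxia, 0 and 0 in FIH-KO normoxia, 23 and 13 in WT hypoxia and 7 and 1 in FIH-KO hypoxia. It too entered the test through the one group where it is high, and without it no uptake gene was lower in either condition.

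**Figure D5:**
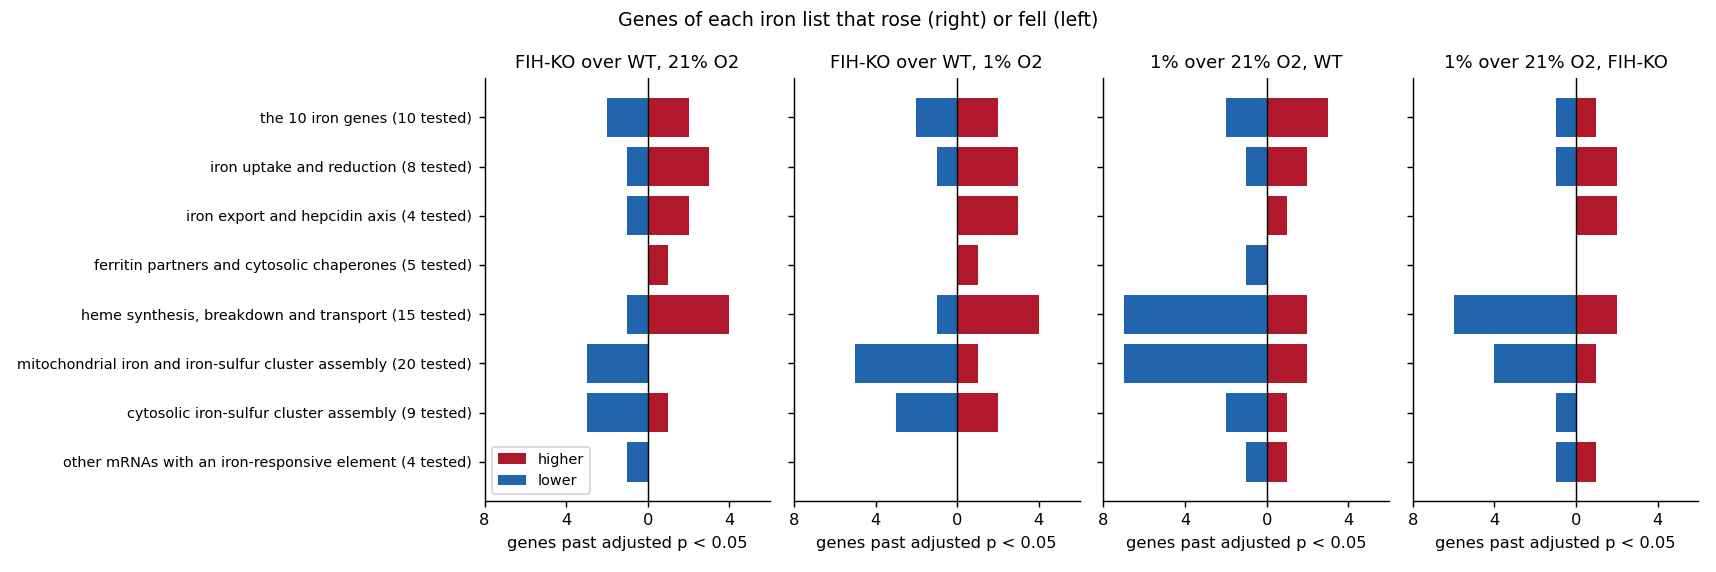
Number of genes of each iron list past an adjusted p under 0.05 (edgeR), higher to the right and lower to the left, in the 4 comparisons. With hypoxia 7 of 15 heme genes and 7 of 20 mitochondrial iron-sulfur genes fell and 2 of each rose in WT cells (15.5% and 16.9% of all genes), and in FIH-KO cells 6 and 4 fell and 2 and 1 rose (16.8% of all in either direction).

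With hypoxia, 28 of the 65 passed in WT cells, 9 higher and 19 lower, beside 16.9% of all tested genes higher and 15.5% lower. In FIH-KO cells 21 passed, 8 higher and 13 lower, beside 8.84% of all tested genes higher and 16.8% in either direction. The 8 include Lcn2, which entered the test only through the FIH-KO hypoxia libraries. In both genotypes 6 rose and 13 fell, beside 7.92% and 6.33% of all tested genes. The median over the 65 was -0.16 in WT and -0.10 in FIH-KO cells, beside -0.001 and -0.03 over all tested genes. In WT cells the heme and the mitochondrial iron-sulfur lists held 9 calls each, and in FIH-KO cells they held 8 and 5. Hmox1, the inducible heme oxygenase that frees iron from heme, was at 22.3 and 25.0 CPM in WT normoxia and 193 and 109 CPM in WT hypoxia, a log2 fold change of 2.67 (SE 0.37, adjusted p = 0.000299, edgeR). In FIH-KO cells it went from 22.3 and 24.8 CPM to 179.5 and 68.4 CPM, a log2 fold change of 2.40 (SE 0.37, adjusted p = 0.00117, edgeR). The hypoxia libraries were above all normoxia libraries and differed widely from each other. Cpox, a late enzyme of heme synthesis, rose by 1.12 (SE 0.14) in WT and 0.72 (SE 0.14) in FIH-KO cells.

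The other heme genes that passed in both genotypes fell, 6 in all. Blvra, the other biliverdin reductase, fell from 23.8 and 22.4 CPM to 9.18 and 10.2 CPM in WT cells (-1.25, SE 0.17) and by a log2 fold change of -0.88 (SE 0.17) in FIH-KO cells. Slc48a1 fell from 142 and 147 CPM to 63.7 and 66.6 CPM in WT cells (-1.15, SE 0.21) and changed by -1.03 (SE 0.21) in FIH-KO cells. Fech, Urod and Alad, enzymes of heme synthesis, were among the remaining 4. In the mitochondrial list Glrx5 (-0.50, SE 0.14, in WT and -0.55, SE 0.14, in FIH-KO cells) and Fdxr (-0.48, SE 0.15, and -0.75, SE 0.16) fell, and Hspa9, a chaperone of cluster transfer, rose (0.46, SE 0.12, and 0.63, SE 0.12). In the cytosolic list Nubp1 fell (-0.69, SE 0.13, and -0.47, SE 0.13). Among the other mRNAs with a hairpin, Cdc42bpa rose (0.68, SE 0.11, and 0.45, SE 0.10). Cp rose by 1.53 (SE 0.21) and 0.80 (SE 0.18), and of the reductases Steap1 rose (0.68, SE 0.17, and 0.58, SE 0.18) while Steap2 fell (-0.38, SE 0.13, and -0.42, SE 0.13).

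The difference between genotypes in the hypoxia effect passed for 0 of the 65 pathway genes by edgeR and by DESeq2. At an unadjusted p under 0.05, 2 were counted, among them Cp, named after its values were seen.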

How the data were processed

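Stranded mRNA libraries were sequenced paired-end, and the authors made read counts for genes by STAR alignment and an HTSeq script. The deposited table holds those counts unnormalized, as whole numbers. The study's methods name GRCm39, and the submitters' processing notes also name GRCm38 and mm10. The annotation release and the strand setting of the counting are not given in the sources used here. Of the identifiers in the count table, 52610 were found in GENCODE M39. The columns of all 8 libraries were used, grouped by the sample titles. The 10 genes, the 7 pathway lists and the markers were chosen with earlier results of these data known.

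The tests used edgeR 4.0.16 (R 4.3.3). Genes were filtered with filterByExpr, which kept 13933, all 10 iron genes among them. TMM factors lay between 0.983 and 1.02, the 8 libraries shared one quasi-likelihood fit of group means, and p values were adjusted by Benjamini-Hochberg over every tested gene, separately per comparison. The biological coefficient of variation was 11.7%. Replicates were further apart than counting error allows (chi-square per degree of freedom 6.15 to 25.7). Standard errors are the log2 fold change divided by the root of F. Where 2 adjusted p values share a sentence, each is from the same test. Pathway genes were named by a rule: per list, up to 3 that rose and 3 that fell with FIH-KO in both oxygen conditions, and up to 2 each way with hypoxia in both genotypes, with a mean of at least 50 counts. Some genes of these lists are not reported here by name, though the counts over the lists hold them. Ndor1 had 3 rows, and the tested one was used. Alternatives were DESeq2 1.42.0, RLE or upper-quartile factors, filters of at least 1 count in any library or 10 in every library, only the 4 libraries compared, the replicate number as a term, pseudogene reads added to ferritin, and each library left out in turn. On simulated data for FIH-KO against WT in normoxia (13705 genes), edgeR called 97 of 100 genes changed by a log2 fold change of 1 and 9 unchanged genes. Sequences were read from GRCm39 with Python 3.11.15.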

Additional observations from a re-analysis of the deposited data

How the results depend on the processing

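Of 340 log2 fold changes of the 10 genes recomputed under another normalization, test, filter or sample set, 0 changed direction, 4 lost the call and 11 gained one. When the fit held just the 4 libraries being compared, the count of iron genes called with hypoxia was 8 of 9 tested in WT cells and 1 in FIH-KO cells, and 11 pathway genes were called in FIH-KO cells, beside 42.6% and 9.83% of all genes tested in those fits. With the filter of 1 count in any library, 1 iron gene (Steap3) passed for the difference between genotypes, beside 0.556% of all genes tested there. The cause of these changes was not tested. Leaving out 1 library at a time, which leaves a lone library assumed to vary like the other groups, gave 1 to 6 iron genes and 9 to 26 pathway genes called for FIH-KO in normoxia, and 2 to 5 and 15 to 28 in hypoxia, beside 11.8% to 31.9% and 14.9% to 26.6% of all tested genes. With hypoxia it gave 2 to 6 and 13 to 37 in WT cells, and 0 to 3 and 11 to 21 in FIH-KO cells, beside 14.5% to 36% and 7.52% to 17.8%. Of 400 log2 fold changes recomputed this way, 21 changed sign, none of them a value that had passed in the same comparison. For FIH-KO in normoxia these were Aco1 (range -0.011 to 0.13) and Fbxl5 (-0.002 to 0.14), and in hypoxia Fbxl5 (-0.15 to 0.026) and Slc40a1 (-0.50 to 1.70). For hypoxia in FIH-KO cells it was Steap3 (-0.41 to 0.023). For the difference between genotypes they were Tfrc (-0.76 to 0.23), Fth1 (-0.29 to 0.087), Ftl1 (-0.40 to 0.12), Slc40a1 (-1.08 to 1.12), Slc11a2 (-0.26 to 0.048) and Ncoa4 (-0.21 to 0.048).

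With the replicate number as a block, 4, 4, 6 and 2 iron genes and 21, 24, 29 and 22 pathway genes passed in the 4 comparisons, in the order FIH-KO in normoxia and hypoxia, then hypoxia in WT and FIH-KO cells, beside 29.3%, 29%, 33% and 17.8% of all tested genes. The labels give same-numbered libraries a shared number and do not say whether they were handled together. Deviations of same-numbered libraries correlated by -0.01 to 0.193 over the pairs of groups, highest between WT hypoxia and FIH-KO hypoxia. The sixth iron gene counted in WT cells is Slc40a1 (adjusted p = 0.0367 under the block, edgeR), which entered the test only through its hypoxia libraries and is not read as a change. The block changed no call of the other 9 iron genes. Depth limits Slc40a1, at 16 counts or fewer in every library, and its fitted values above are no measure of a fold change.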
